A study of Mus musculus with 8 samples.

Results

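The CCR4-NOT complex is the main enzyme that shortens the poly(A) tails of cytoplasmic mRNAs, which slows their translation and leads to their decay. Cnot1 encodes the scaffold on which the other subunits assemble, and the catalytic subunits come as pairs of paralogs, Cnot6 with Cnot6l and Cnot7 with Cnot8. RNA-binding proteins bring the complex to chosen mRNAs. In the testis, Cnot7 is known to be needed for normal spermatid maturation and male fertility, and MIWI, a piRNA-binding protein of the Argonaute family, has been linked to deadenylation of spermatid mRNAs.

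The 10 subunit genes described here are Cnot1, Cnot2, Cnot3, Cnot4, Cnot6, Cnot6l, Cnot7, Cnot8, Cnot10 and Cnot11, out of 21949 genes in the deposited tables. They are named subunits of the complex, picked with earlier results of these data known, and each gene is represented by its transcript with the highest mean fragment count. All 10 passed the filter on low counts, as did 16050 genes in all. The libraries come from whole testes of C57BL/6 mice aged 24 days after birth, either wild type (WT) or Miwi-null, Miwi being listed as Piwil1. One kind of library holds total RNA and the other ribosome-protected fragments (RPF), the short stretches left when nuclease removes the mRNA outside ribosomes. Genotype and assay make 4 groups of 2 libraries, written here as WT or null with RNA or RPF. The labels describe the null allele no further and tie no library to an animal, so every p-value rests on a spread among libraries that may be partly technical.

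Levels of one gene across libraries are given as CPM, the usual count normalised for sequencing depth, on TMM-scaled library sizes. They are given as the authors' FPKM, which also divides by coding length, where genes are compared with each other. A change is the log2 difference of null from WT with its standard error (SE) from an edgeR quasi-likelihood model over 8 libraries. Calls need an edgeR p below 0.05 after Benjamini-Hochberg adjustment over the 16050 genes. Translational efficiency (TE) is the footprint change minus the RNA change, tested as an interaction. All of these are relative amounts, since no spike-in or absolute measure is used here.

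Piwil1 had 552 and 533 CPM in the WT RNA libraries and 3.52 and 2.27 CPM in the null ones, so the genotype labels hold in RNA. Its footprints gave 482 and 390 CPM in WT and 3.30 and 3.26 CPM in null. Library totals ran from 11130948 to 15592800 gene counts in RNA and from 11662662 to 28334624 in RPF, and 1 count was worth 0.0340 to 0.0893 CPM. The null RNA pair lay close to counting noise, with a chi-square per gene of 1.18, against 3.69 for WT RNA, 42.0 for WT RPF and 21.2 for null RPF. Among the subunits, footprint replicates differed by up to 1.43-fold in WT and 1.44-fold in null, and RNA replicates by up to 1.24-fold and 1.10-fold. The footprint libraries also stood apart in a way that crosses their numbers. Over 10171 genes with a mean of at least 10 CPM, the difference between WT RPF replicates 1 and 2 correlated at r = -0.81 with that between null RPF replicates 1 and 2. WT RPF 1 thus departed from its partner in the same direction as null RPF 2, and these are the deepest footprint libraries, with 28054423 and 28334624 counts. What this shared difference does to each footprint value was not tested beyond the alternatives reported with the values.

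RefSeq's promoter table (GRCm38.p6) held 14 windows for 8 of the 10 subunits and none for Cnot1 and Cnot7. The stretches before 2 of these genes are printed as examples with repeats of a motif. These are CCAAT boxes in Cnot3 and the core to which ETS factors bind in Cnot10. Repeats were not particular to them, as the stretches of Cnot4 and Cnot11 each held 3 GC boxes. Cnot3 was called in TE and Cnot10 in RNA, and a link between motifs and calls was not tested. Capitals mark the motifs CCAAT and GGGCGG (GC box) in Cnot3 and CCGGAAG or its reverse complement CTTCCGG in Cnot10, and each stretch ends just before the gene's annotated start.
Cnot3, chr7:3645019-3645246, plus strand: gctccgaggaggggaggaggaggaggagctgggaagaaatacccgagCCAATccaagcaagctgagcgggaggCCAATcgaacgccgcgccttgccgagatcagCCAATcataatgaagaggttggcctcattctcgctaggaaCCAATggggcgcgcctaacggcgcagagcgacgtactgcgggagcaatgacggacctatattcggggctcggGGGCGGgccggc
Cnot10, chr9:114640221-114640450, minus strand: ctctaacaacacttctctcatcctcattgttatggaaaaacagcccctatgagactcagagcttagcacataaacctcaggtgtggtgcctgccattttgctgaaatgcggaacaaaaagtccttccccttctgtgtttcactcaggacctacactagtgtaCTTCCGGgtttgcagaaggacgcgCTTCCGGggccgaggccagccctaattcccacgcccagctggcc
The Cnot3 stretch also overlaps Gm15927, a gene annotated beside it.

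Motifs were searched on both strands of the 250 bases before each start, over 32851 windows. The GC box, GGGCGG, was in 11 of the 14 subunit windows and in 32.7% of all windows. CCAAT was in the windows of Cnot3 and Cnot6 and in 33.8% of all windows, and Cnot3 held 4 matches, a number reached by 0.84% of windows. CCGGAAG was in windows of Cnot10, Cnot11 and Cnot6l and in 6.91% of all windows, and Cnot10 held 3 matches in its 250 bases, which 0.1% of windows reach. Of these, 2 lie in the printed stretch, which leaves out bases inside the annotated gene. CACGTG (E-box) was in a window of Cnot4 and in 6.02% of all. None of the 14 windows held TATAAA, TGACGTCA (CRE) or the NRF1 site, which were in 12.4%, 1.55% and 0.782% of all windows. Shares of windows with as many matches were worked out for Cnot3 and Cnot10 only. All the matches are descriptions of letters and not of binding.

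In RNA, the scaffold Cnot1 and its partner Cnot2 rose the most. Of the 10 subunits, 4 were called higher in null RNA and 0 lower, where 37.3% of all tested genes were called, 16.5% higher and 20.8% lower. Among the 10171 genes with a mean of at least 10 CPM, which all 10 subunits reach, these shares were 42.9%, 17.9% and 25.0%. The 4 were Cnot1, Cnot2, Cnot6 and Cnot10. At an unadjusted p under 0.05 the count was 7, where 46.9% of all tested genes passed. The median change of the 10 was 0.43, against -0.07 over all tested genes. With the RNA libraries fitted alone, Cnot7 (adjusted p = 4.22e-06) and Cnot8 (0.000670) were also called higher and Cnot3 lower (0.00437). That fit called 9042 of all genes, against 5988 in the main fit. In 7 subunits both null RNA libraries lay above both WT ones, in 2 (Cnot3 and Cnot6l) below, and in Cnot11 the groups overlapped. Groups that do not overlap were common here, with 77.8% of all tested genes so placed, 34.7% with null higher.

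**Figure D1:**
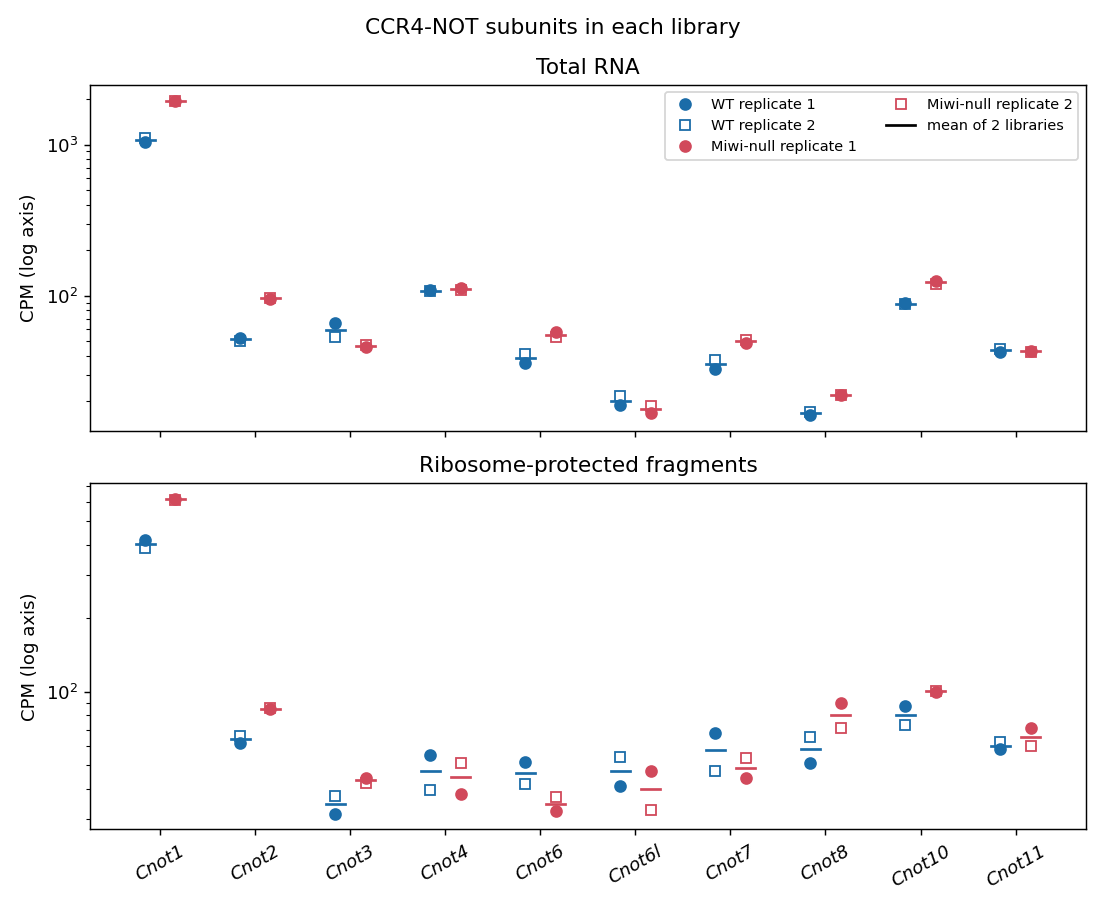
CPM of each subunit in each library on a log axis, RNA in one panel and footprints (RPF) in the other, with WT and null libraries as separate points. Cnot1 lies far above the other subunits in RNA, and its null libraries (1942 and 1950 CPM) lie above its WT libraries (1036.8 and 1100.5 CPM).

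Cnot1 (ENSMUSG00000036550.16, chromosome 8, 95718931 to 95808113, GRCm38) encodes the scaffold. Its RNA stood at 1036.8 and 1100.5 CPM in WT and at 1942 and 1950 CPM in null. Its footprints stood at 420 and 387 CPM in WT and 617 and 614 CPM in null. Both null libraries thus lay above both WT libraries in each assay. RNA rose by 0.86 ± 0.08 (SE), 1.82-fold, with an adjusted p of 0.000119, and footprints rose by 0.61 ± 0.08, 1.52-fold, with an adjusted p of 0.000918. Both calls held in all 20 alternatives run. With the footprint libraries fitted alone, the Cnot1 footprint change was 0.61 with an edgeR adjusted p of 0.0459, near the cut. The TE value was -0.26 ± 0.12 (adjusted p = 0.176).

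Cnot2 (ENSMUSG00000020166.15, chromosome 10, 116485160 to 116581900) and Cnot3 (ENSMUSG00000035632.16, chromosome 7, 3645247 to 3661109) encode the module that sits on the C-terminal part of CNOT1. Cnot2 RNA was 52.9 and 50.4 CPM in WT and 95.5 and 96.4 CPM in null. Its footprints were 61.7 and 66.0 CPM in WT and 84.6 and 85.4 CPM in null. The null libraries were the higher ones in both assays, and more so in RNA. RNA rose by 0.89 ± 0.09, 1.86-fold (adjusted p = 0.000185), and footprints by 0.41 ± 0.09, 1.33-fold (adjusted p = 0.0113). The footprint call was lost when the footprint libraries were fitted alone (adjusted p = 0.0918).

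Cnot3 RNA was 66.0 and 53.5 CPM in WT and 45.6 and 47.0 CPM in null. Its footprints were 31.6 and 37.5 CPM in WT and 44.5 and 42.4 CPM in null. The null libraries were thus the lower pair in RNA and the higher pair in footprints. Neither change was called on its own, at -0.37 ± 0.13 in RNA (adjusted p = 0.0578) and 0.33 ± 0.13 in footprints (adjusted p = 0.101). The WT RNA pair differed by 1.24-fold here, and leaving out WT RNA 2 made the RNA change a call (adjusted p = 0.0414), as did leaving out WT RPF 2 (0.0262). Cnot3 footprints were called without WT RPF 2 (adjusted p = 0.0343).

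**Figure D2:**
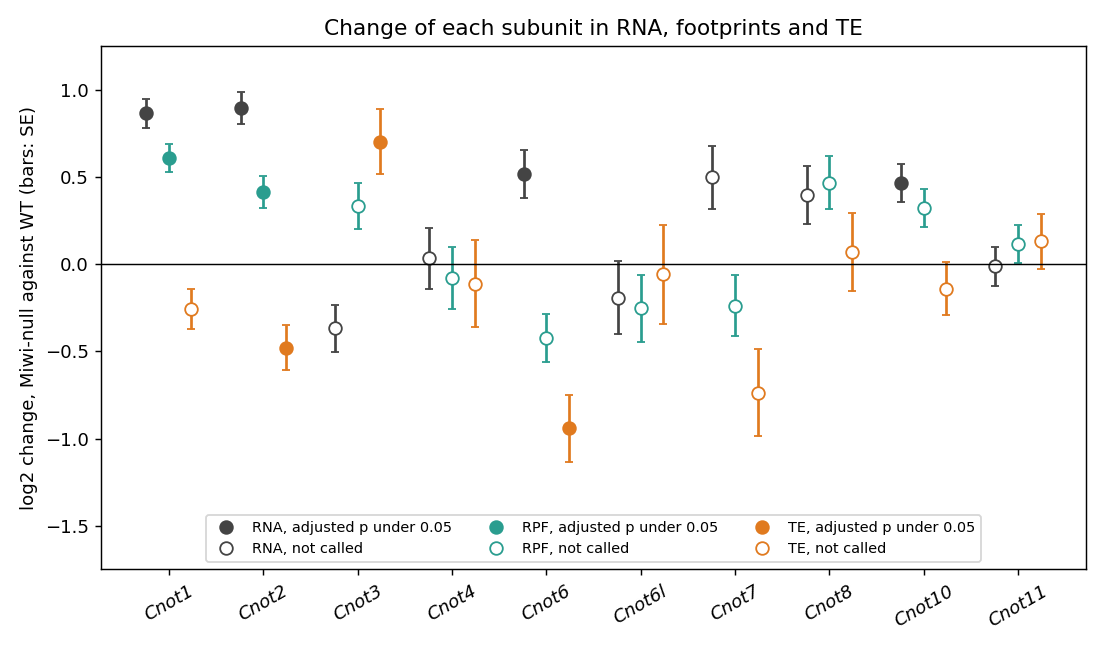
Log2 change of null from WT with its SE for each subunit in RNA, footprints (RPF) and TE, with filled symbols for changes called at an adjusted p under 0.05. Cnot1 and Cnot2 are called in RNA and in footprints, and Cnot3 is the one subunit with a called change above 0 in TE.

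The deadenylases come next. Cnot6 (ENSMUSG00000020362.13, chromosome 11, 49671497 to 49713401) and Cnot6l (ENSMUSG00000034724.18, chromosome 5, 96070333 to 96164198) encode the CCR4-type nucleases. Cnot6 RNA was 36.0 and 41.5 CPM in WT and 57.4 and 53.4 CPM in null, so the null pair was higher. Its footprints were 51.4 and 41.8 CPM in WT and 32.3 and 37.0 CPM in null, so the null pair was lower. RNA rose by 0.52 ± 0.14, 1.43-fold (adjusted p = 0.0184). That call was lost without WT RNA 1 (adjusted p = 0.142), null RNA 1 (0.119) or null RNA 2 (0.0646). The footprint change was -0.42 ± 0.14 (adjusted p = 0.0513). It was called in 4 of 20 alternatives, among them that without a count filter (0.0443). It was -0.56 without WT RPF 2.

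Cnot6l had the lowest RNA level per length of the 10. Its RNA was 18.9 and 21.6 CPM in WT against 16.8 and 18.6 CPM in null. Its footprints were 40.9 and 54.0 CPM in WT against 47.2 and 32.9 CPM in null, and the groups overlapped. Neither change passed the test, at -0.19 ± 0.21 in RNA (adjusted p = 0.503) and -0.25 ± 0.19 in footprints (adjusted p = 0.377). The treatment of fragments that match both paralogs of a pair is not given in the sources used here, so the split between paralogs is uncertain where their sequences coincide.

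Cnot7 (ENSMUSG00000031601.16, chromosome 8, 40492538 to 40515847) and Cnot8 (ENSMUSG00000020515.13, chromosome 11, 58092794 to 58118597) encode the CAF1-type nucleases. Cnot7 RNA was 32.8 and 37.7 CPM in WT and 48.8 and 50.8 CPM in null, the null pair being higher. Its footprints were 68.0 and 47.4 CPM in WT and 44.3 and 53.4 CPM in null, and these overlapped. RNA changed by 0.50 ± 0.18 (adjusted p = 0.0584), which fell short of a call. It was called without WT RPF 1 (adjusted p = 0.0049), WT RPF 2 (0.0081) or null RPF 2 (0.0354), and with DESeq2 (0.0298), DESeq2 size factors (0.0387) or TMM within each assay (0.0390). The footprint value was -0.24 ± 0.17 (adjusted p = 0.355). It was -0.47, and called, without WT RPF 2 (adjusted p = 0.0270), and it was 0.09 without WT RPF 1.

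Cnot8 RNA was 16.2 and 17.1 CPM in WT and 21.9 in both null libraries. Its footprints were 51.0 and 65.4 CPM in WT and 90.1 and 70.9 CPM in null. The null pair was higher in both assays, with a change of 0.40 ± 0.17 in RNA (adjusted p = 0.0950) and 0.47 ± 0.15 in footprints (adjusted p = 0.0525). Neither was called. The RNA change and the footprint change were each called in 7 of 20 alternatives. With no scaling beyond library totals the edgeR adjusted p was 0.0293 in RNA and 0.0496 in footprints. The footprint change was also called without a count filter (0.0412) and with summed transcripts (0.0499). Leaving out one library gave changes of 0.35 to 0.46 in RNA and 0.29 to 0.65 in footprints.

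Cnot10 (ENSMUSG00000056167.7, chromosome 9, 114585874 to 114640220) and Cnot11 (ENSMUSG00000003135.15, chromosome 1, 39535701 to 39546881) encode the module at the N-terminal part of CNOT1. Cnot10 RNA was 89.3 and 88.3 CPM in WT and 126 and 119 CPM in null. Its footprints were 87.4 and 73.1 CPM in WT and 100.1 and 100.6 CPM in null. The null pair was higher in both. RNA rose by 0.46 ± 0.11, 1.38-fold (adjusted p = 0.0101). The call was lost without any single RNA library, with adjusted p of 0.0674 without WT RNA 1, 0.0672 without WT RNA 2, 0.0900 without null RNA 1 and 0.0528 without null RNA 2. The footprint change was 0.32 ± 0.11 (adjusted p = 0.0584). It was called in 4 of 20 alternatives, among them DESeq2 size factors (0.0420) and summed transcripts (0.0431). It was 0.49 without WT RPF 1.

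Cnot11, in contrast to its partner, stayed between 42.6 and 44.3 CPM in all RNA libraries. Its footprints lay between 58.1 and 70.9 CPM, with the groups overlapping. The change was -0.01 ± 0.11 in RNA (adjusted p = 0.942) and 0.12 ± 0.11 in footprints (adjusted p = 0.481). The difference between Cnot10 and Cnot11 was not tested. Cnot4 (ENSMUSG00000038784.13, chromosome 6, 35022065 to 35133754) encodes a ubiquitin ligase that binds the complex loosely. It ran from 106.8 to 111.7 CPM in RNA and from 38.2 to 55.1 CPM in footprints. Its changes were 0.03 ± 0.17 in RNA (adjusted p = 0.903) and -0.08 ± 0.18 in footprints (adjusted p = 0.779).

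In footprints, 2 of the 10 subunits were called higher, Cnot1 and Cnot2, and 0 lower. Over all tested genes 25.4% were called in footprints, 12.0% higher and 13.3% lower, and at a mean of at least 10 CPM 28.0%, 13.2% and 14.8%. At an unadjusted p under 0.05 the count was 6, where 38.0% of all tested genes passed. The median change of the 10 was 0.22 and that of all tested genes was -0.0046. Both null footprint libraries lay above both WT ones in 5 subunits (Cnot1, Cnot2, Cnot3, Cnot8 and Cnot10), below in Cnot6, and overlapped in the other 4. Of all tested genes 57.5% did not overlap in footprints, 28.3% with null higher. With the footprint libraries fitted alone the count of called subunits was 1. That fit called 1985 of all genes, against 4075 in the main fit.

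Cnot9, the subunit that docks many adaptors, was not among the 10 and was looked at after its values were seen. Its RNA lay between 32.9 and 35.3 CPM in every library (0.03 ± 0.16, adjusted p = 0.916). Its footprints were 49.1 and 37.8 CPM in WT and 29.3 and 37.1 CPM in null (-0.38 ± 0.15, adjusted p = 0.106), with null below WT. It was called without WT RPF 2 (adjusted p = 0.0157).

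The interaction test asked whether footprints changed by another amount than RNA. Of the 10 subunits, 1 rose in TE (Cnot3) and 2 fell (Cnot2 and Cnot6). Over all tested genes 14.9% were called in TE, 7.32% higher and 7.56% lower. At a mean of at least 10 CPM the share was 20.4%, with 10.2% in each direction. The median TE change of the 10 was -0.13 and that of all tested genes was 0.04. At an unadjusted p under 0.05 the count was 4, where 30.8% of all tested genes passed. The median of all tested genes moved by -0.14 with no scaling beyond library totals, so TE values are read relative to it. Under each of the 4 scalings compared, 3 subunits lay above the median of all genes and 7 below. A change of scaling moves all genes nearly alike, so this split could hardly differ and is no sign of stability.

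Cnot6 changed the most in TE, by -0.94 ± 0.19, a ratio 0.521 times that of WT (adjusted p = 0.0159). Its RNA and footprints moved in opposite directions in these libraries. The call held in 16 of 19 alternatives and was lost without WT RNA 1 (adjusted p = 0.0919), null RNA 1 (0.0861) or null RNA 2 (0.0639). Cnot2 changed by -0.48 ± 0.13, a ratio 0.717 times that of WT (adjusted p = 0.0410), with footprints rising less than RNA. This call held in 7 of 19 alternatives. It was lost with DESeq2 (adjusted p = 0.0586), without a count filter (0.0572) and with summed transcripts (0.0504). It was also lost in 7 of the 8 fits that left out a library, all but that without WT RPF 1, with adjusted p between 0.0501 and 0.171.

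Cnot3 rose in TE by 0.70 ± 0.19, 1.63 times the WT ratio (adjusted p = 0.0395). The call held in 7 of 19 alternatives. It was lost without WT RNA 1 (adjusted p = 0.152), null RNA 1 (0.156), null RNA 2 (0.134), WT RPF 1 (0.0657), null RPF 1 (0.0831) or null RPF 2 (0.0832). It was also lost with no scaling beyond library totals (adjusted p = 0.0666), DESeq2 size factors (0.05002), TMM within each assay (0.0543) or summed transcripts (0.0631). No subunit remained called in TE without WT RNA 1, null RNA 1 or null RNA 2, where the count over all genes fell from 2389 to 642, 620 and 653. Cnot7 had a TE value of -0.74 ± 0.25 (adjusted p = 0.0833) and was called without WT RPF 2 (adjusted p = 0.0052) and with DESeq2 (0.0496). The other TE values ranged from -0.26 to 0.13 and were not called.

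**Figure D3:**
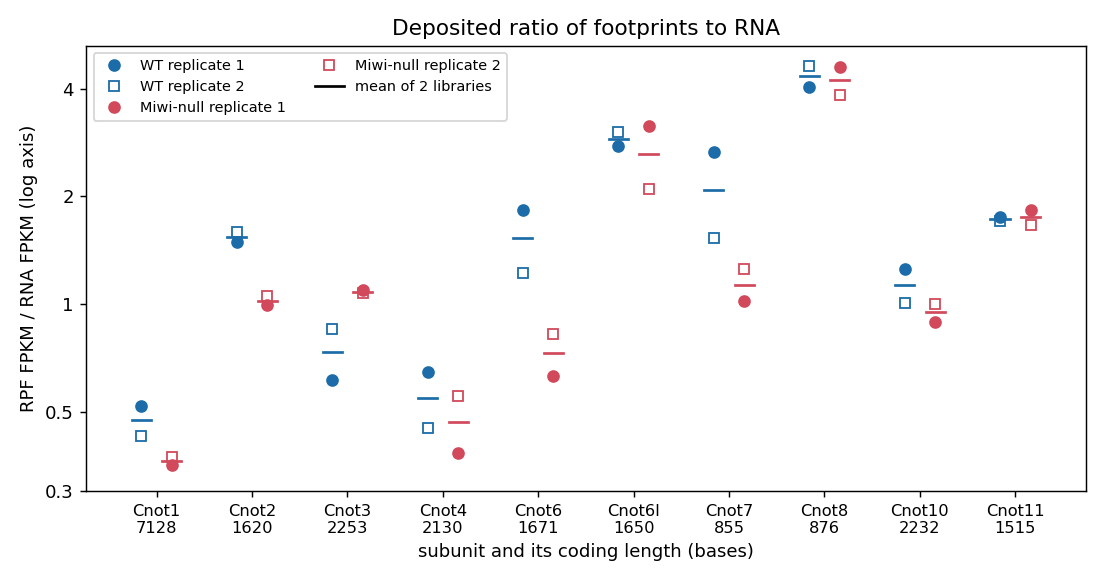
The authors' deposited ratio of RPF FPKM to RNA FPKM for each subunit and replicate, with the coding length of each gene. Cnot8 has the highest ratios (3.85 to 4.63) and Cnot1 the lowest (0.356 to 0.519), and Cnot7, the shortest gene, lies below Cnot6l in WT and null means.

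The subunits also differed from each other in the deposited ratio of RPF FPKM to RNA FPKM. Cnot8 was highest in WT, with a mean of 4.33 ± 0.419 (SD, n = 2), followed by Cnot6l at 2.90 ± 0.191 and Cnot7 at 2.09 ± 0.798. Cnot11 (1.73 ± 0.0285), Cnot2 (1.54 ± 0.0683), Cnot6 (1.53 ± 0.429) and Cnot10 (1.13 ± 0.176) came next. The lowest were Cnot3 (0.732 ± 0.168), Cnot4 (0.546 ± 0.137) and Cnot1 (0.473 ± 0.0651). In null, Cnot8 (4.23 ± 0.539) and Cnot6l (2.62 ± 0.735) stayed at the top, and Cnot4 (0.468 ± 0.120) and Cnot1 (0.365 ± 0.0129) at the bottom.

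The order ran roughly with coding length. Cnot7 and Cnot8 have 855 and 876 coding bases and Cnot1 has 7128, while Cnot6l, at 1650, had a higher ratio than Cnot11 at 1515. Over genes with a mean of at least 10 CPM, the median WT ratio was 2.42 at 300 to under 900 coding bases and 1.53 at 900 to under 1800. It was 1.02 at 1800 to under 3600 and 0.659 at 3600 to under 7200. RNA fragments averaged 244.5 to 287.6 bases per the labels and footprints 28.5. The ratio therefore cannot be told apart from length when subunits of different length are compared with each other. Within each paralog pair the lengths are nearly equal, and the ratios did not overlap in either genotype. Cnot7 had means of 2.09 in WT and 1.13 in null, against 4.33 and 4.23 for Cnot8. Cnot6, at 1671 bases, had 1.53 in WT and 0.727 in null, against 2.90 and 2.62 for Cnot6l. The cause of these differences was not tested, and the split of fragments between paralogs is uncertain.

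Between genotypes, both null ratios lay above both WT ratios in Cnot3, below in Cnot1, Cnot2, Cnot6, Cnot7 and Cnot10, and overlapped in the other 4. Of all tested genes 57.3% did not overlap in this ratio, 24.6% with null higher and 32.7% with null lower. Cnot6 had ratios of 1.83 and 1.22 in WT and 0.631 and 0.824 in null. Cnot3 had 0.613 and 0.851 in WT and 1.09 and 1.07 in null. Cnot2 had 1.49 and 1.59 in WT and 0.992 and 1.05 in null. In these 3 the null pair is apart from the WT pair.

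The authors' deposited table gives a fold change of the ratio for each gene, which equals the geometric mean over the transcripts it marks confident in 99.9% of gene entries. In the authors' deposited table of merged replicates, 1 subunit was marked Up (Cnot3), 4 Down (Cnot2, Cnot4, Cnot6 and Cnot7) and 5 unchanged. Of all genes with a mark, 29.7% were Up and 31.9% Down in the authors' deposited table. The log2 changes in the authors' deposited table of merged replicates were 0.58 for Cnot3, -0.32 for Cnot2, -0.29 for Cnot4, -1.05 for Cnot6 and -0.85 for Cnot7. In the authors' deposited tables for single replicates, the change had one sign in 5 subunits and opposite signs in the other 5. Cnot4, marked Down when merged, had -0.90 in replicate 1 and 0.27 in replicate 2 of the authors' deposited tables.

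In level per length, Cnot1 was first in RNA, at 118.6 ± 4.60 FPKM (SD, n = 2) in WT and 226 ± 1.02 in null. Cnot4 (40.2 ± 0.877) came next in WT, then Cnot7 (32.6 ± 3.10), Cnot10 (31.5 ± 0.360), Cnot2 (25.2 ± 0.953), Cnot11 (22.7 ± 0.560), Cnot3 (21.0 ± 3.19), Cnot6 (18.3 ± 1.77), Cnot8 (15.03 ± 0.549) and Cnot6l (9.71 ± 0.867). The WT libraries of Cnot7 and Cnot10 overlapped, as did those of Cnot11 and Cnot3 and those of Cnot3 and Cnot6. The other neighbours in that order did not. In null RNA the order was Cnot1, Cnot2 (49.0 ± 0.394), Cnot7 (48.3 ± 1.49), Cnot10 (45.4 ± 1.64), Cnot4 (43.1 ± 0.486), Cnot6 (27.5 ± 1.38), Cnot11 (23.5 ± 0.198), Cnot8 (20.7 ± 0.0253), Cnot3 (17.0 ± 0.402) and Cnot6l (8.89 ± 0.628), with overlap between Cnot2 and Cnot7 only. Cnot2 thus went from the fifth place to the second.

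Footprints gave another order. In WT, Cnot7 (66.9 ± 19.6 FPKM), Cnot8 (65.3 ± 8.68) and Cnot1 (55.9 ± 5.54) led, and neighbours among these overlapped. Cnot11 (39.1 ± 0.320), Cnot2 (38.8 ± 0.254) and Cnot10 (35.5 ± 5.96) came next, and then Cnot6l (28.2 ± 4.37), Cnot6 (27.6 ± 5.16), Cnot4 (22.0 ± 5.99) and Cnot3 (15.1 ± 1.19). In null, Cnot8 (87.5 ± 11.1) and Cnot1 (82.5 ± 3.30) led and overlapped, and Cnot7 (54.8 ± 9.58) followed. The remaining null means ran from 50.1 ± 2.49 in Cnot2 down to 18.4 ± 0.185 in Cnot3. Cnot1 held 35.4% ± 0.732 (SD, n = 2) of the summed subunit FPKM in WT RNA and 44.4% ± 0.178 in null RNA. In footprints its share was 14.2% ± 0.420 in WT and 18.7% ± 0.487 in null. The null share was the higher in both assays, and the lower share in footprints cannot be told apart from the length trend of the ratio.

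**Figure D4:**
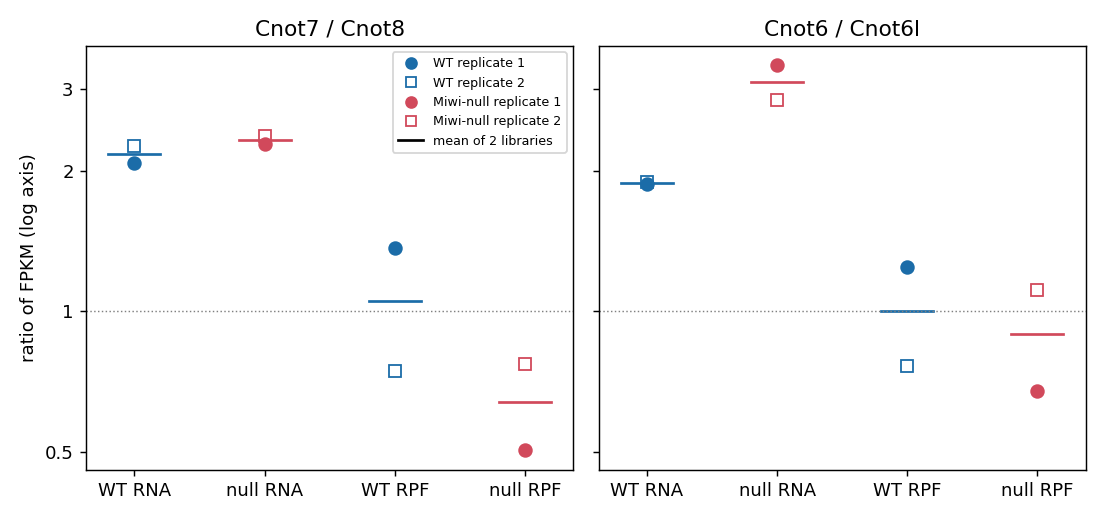
FPKM ratio of Cnot7 to Cnot8 and of Cnot6 to Cnot6l in each library, for RNA and footprints in WT and null. In RNA the first-named paralog is higher in every library (ratios of 1.88 to 3.37), and in footprints the ratios lie on both sides of 1.

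The paralog pairs differed in balance. In RNA, the FPKM of Cnot7 was 2.08 and 2.26 times that of Cnot8 in WT and 2.28 and 2.38 times in null. In footprints the same ratio was 1.37 and 0.744 in WT and 0.504 and 0.772 in null, so the groups overlapped. For Cnot6 over Cnot6l the RNA ratio was 1.88 and 1.90 in WT and 3.37 and 2.84 in null, with both null libraries higher. The footprint ratio of that pair was 1.24 and 0.764 in WT and 0.676 and 1.11 in null, again overlapping. Exact two-sided permutation tests gave p = 0.333 for both RNA comparisons and 0.667 for both footprint comparisons, 0.667 for all 4 after Benjamini-Hochberg adjustment. With 2 against 2 libraries the smallest p possible is 0.333.

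The RNA change also moved with coding length. RNA inserts were longer in both null libraries, a difference that cannot be told apart from genotype. The median RNA change was -0.25 for genes of 300 to under 900 coding bases and 0.10 for genes of 3600 to under 7200. Mean RNA inserts were 266 and 244.5 bases in WT and 287.6 and 284 bases in null. With the trend on coding length removed, Cnot1 still rose by 0.64 in RNA (adjusted p = 0.0008) and by 0.49 in footprints (adjusted p = 0.0040). Under that alternative 7 subunits and 5774 of all genes were called in RNA, against 4 and 5988 without it. Cnot3 was then called lower (adjusted p = 0.0370) and Cnot7 (0.0235) and Cnot8 (0.0496) higher. In footprints 4 were then called, and 4082 of all genes, with Cnot8 (adjusted p = 0.0491) higher and Cnot6 (0.0450) lower beside Cnot1 and Cnot2.

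The libraries are of whole testis, so fewer cells of a type and less RNA per cell cannot be told apart. Marker lists of 9 cell types were summed, and most moved in some assay. The summed level of 12 late spermiogenesis markers was 20550 to 20952 CPM in WT RNA and 4412 to 4429 CPM in null RNA, and all 12 fell. In footprints the sum was 8468 to 8498 CPM in WT and 670 to 801 CPM in null, and again all 12 fell. The 12 spermatocyte markers summed to 548 to 635 CPM in WT RNA and 996 to 1027 CPM in null RNA, with 6 higher and 0 lower. In footprints they summed to 2574 to 2698 CPM in WT and 2520 to 2530 CPM in null, with 1 higher and 1 lower. The 12 Leydig cell markers summed to 1337 to 1343 CPM in WT RNA and 2444 to 2459 CPM in null RNA, with 6 higher and 1 lower. In footprints the Leydig sum was 2808 to 2895 CPM in WT and 8723 to 9621 CPM in null, with 7 higher and 0 lower. In RNA, 9 of 12 peritubular myoid, 7 of 11 tested Sertoli, 6 of 11 tested spermatogonial, 5 of 12 endothelial and blood, 4 of 12 round spermatid and 1 of 12 macrophage markers fell. Of the same lists, 1 round spermatid and 2 macrophage markers rose in RNA. In footprints, 9 round spermatid, 7 endothelial and blood, 5 myoid, 3 Sertoli, 2 spermatogonial and 2 macrophage markers fell, and 1 round spermatid, 1 Sertoli and 1 macrophage marker rose. In TE, 9 late spermiogenesis, 5 round spermatid, 4 spermatocyte, 2 macrophage and 1 endothelial and blood markers fell. Those that rose in TE were 5 Sertoli, 3 Leydig, 2 peritubular myoid, 2 endothelial and blood and 1 spermatogonial marker. No marker of the 9 lists was at 0 in all libraries. The part that these shifts have in the subunit changes was not tested.

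The pathway around the complex was described by 3 lists chosen with earlier results of these data known. Of 17 partners and other deadenylases, 1 rose and 1 fell in RNA, 1 rose and 1 fell in footprints, and 1 fell in TE. Their medians were -0.05, 0.02 and 0.17. Of 14 decapping and decay genes, 2 rose and 5 fell in RNA, 1 rose and 2 fell in footprints, and 1 fell in TE. Their medians were -0.31, -0.12 and 0.03. Of 17 tested adaptors that bring the complex to mRNA, 2 rose and 7 fell in RNA, 1 fell in footprints, and 2 rose and 2 fell in TE. Their medians were 0.04, -0.02 and 0.0048, and Nanos2 was too low to test. Over all tested genes, 16.5% were called higher and 20.8% lower in RNA, 12.0% and 13.3% in footprints, and 7.32% and 7.56% in TE.

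**Figure D5:**
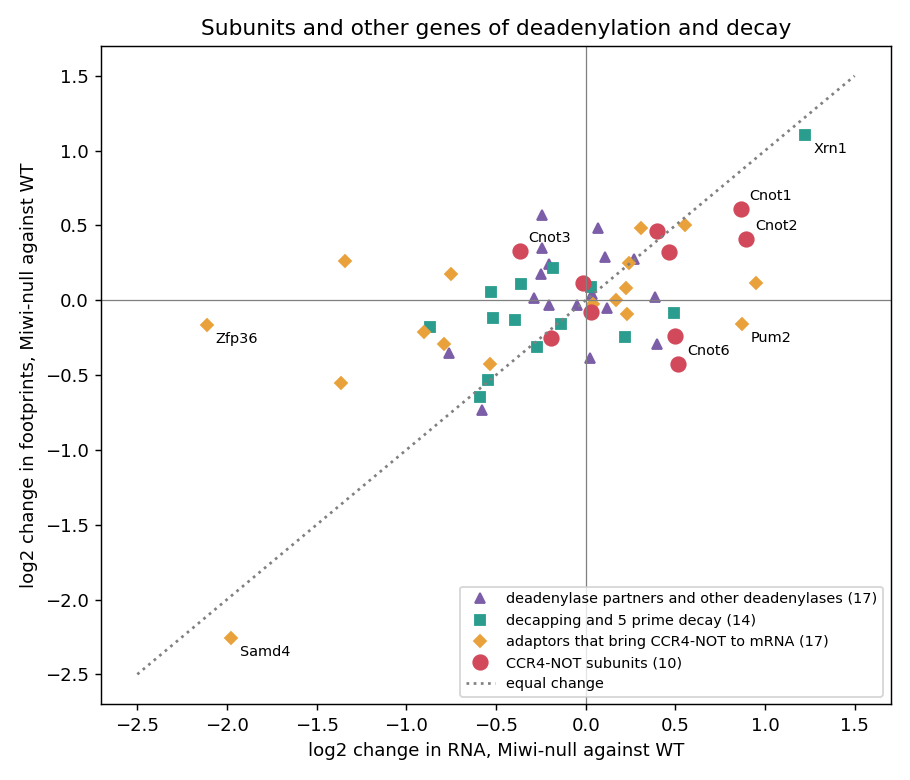
Footprint change against RNA change (log2, null minus WT) for the 10 subunits and the genes of the 3 pathway lists. Xrn1 lies at the top right, beyond Cnot1 and Cnot2 on both axes, and Samd4 at the bottom left.

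Xrn1, the exonuclease that degrades decapped mRNA, changed along with Cnot1. Its RNA was 23.6 and 29.3 CPM in WT and 66.0 and 57.3 CPM in null, and its footprints were 23.6 and 23.2 CPM in WT and 47.9 and 52.8 CPM in null. The null pair was higher in both. RNA rose by 1.22 ± 0.13 (adjusted p = 0.000249) and footprints by 1.11 ± 0.13 (adjusted p = 0.000448). Samd4, whose protein Smaug recruits the complex to target mRNAs, fell by 1.98 ± 0.29 in RNA (adjusted p = 0.00126) and fell by 2.25 ± 0.30 in footprints (adjusted p = 0.000936). Its footprints were 212 and 113 CPM in WT and 26.1 and 41.3 CPM in null. Both null libraries were below both WT libraries, although the WT pair differed widely.

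Pum2, a Pumilio protein that binds mRNA elements, rose by 0.87 ± 0.09 in RNA (adjusted p = 0.000202) and fell by 1.03 ± 0.13 in TE (adjusted p = 0.00230). Its footprint value was -0.16 ± 0.09 (adjusted p = 0.242). Rc3h2, a Roquin protein, rose by 0.95 ± 0.10 in RNA (adjusted p = 0.000229) and fell by 0.84 ± 0.15 in TE (adjusted p = 0.00844). The Rc3h2 TE call was lost without WT RNA 1 (adjusted p = 0.0592), null RNA 1 (0.0519) or null RNA 2 (0.0607). Pan3, a subunit of the other main cytoplasmic deadenylase, fell by 0.69 ± 0.13 in TE (adjusted p = 0.0127), a call lost without any single RNA library (0.0516 to 0.0802). Zfp36, which binds AU-rich elements, rose by 1.95 ± 0.43 in TE (adjusted p = 0.0205) from low levels of 1.76 to 9.20 CPM in RNA. Its RNA fell by 2.11 ± 0.32 (adjusted p = 0.00135), and its footprint value was -0.17 ± 0.27 (adjusted p = 0.699). The Zfp36 TE call was lost without WT RNA 1, null RNA 1, null RNA 2 or null RPF 2.

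In footprints, Tob2, an adaptor that binds the CAF1-type nucleases, rose by 0.48 ± 0.13 (adjusted p = 0.0269), and Patl1, a decapping factor, fell by 0.53 ± 0.15 (adjusted p = 0.0290). The Tob2 call was lost without any single library except WT RPF 2 and null RPF 1, at adjusted p up to 0.121, and also with DESeq2 (0.0505), summed transcripts (0.0578) or footprint libraries alone (0.107). The Patl1 call was lost without WT RNA 1, WT RNA 2, WT RPF 2, null RPF 1 or null RPF 2, at adjusted p up to 0.135, and with footprint libraries alone (0.0763).

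The genes most like Cnot1 across the 8 libraries, among 10161 others with a mean of at least 10 CPM, were Dgat1, Mgll and Dnah8, with r = 0.998, 0.998 and 0.997 on log2 CPM. Those most like Cnot7 were Vps26a (0.980), Cops2 (0.973) and Tc2n (0.971). The 8 points share genotype and assay differences as well as depth, so these values describe the pattern only.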

How the data were processed

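Fragment counts per transcript were deposited by the authors as whole numbers in tables for each replicate number. The authors also deposited FPKM, the ratio of RPF FPKM to RNA FPKM, and its log2 change with a mark, per the file headers. Tools listed without a role in the submitters' processing notes are STAR 2.5.0a, cutadapt 2.5 and Bowtie 1.2.2, and the build is GRCm38. How fragments were counted, by strand or with multiple matches, is not given in the sources used here. Groups and replicate numbers came from the sample titles.

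Each gene was represented by 1 transcript, that with most counts on average, and edgeR 4.0.16 (R 4.3.3) was run on the deposited counts. The steps were filterByExpr (minimum count 10, minimum total 15), TMM over 8 libraries, and a robust quasi-likelihood fit to the 4 groups. The fit had 4 residual degrees of freedom. It was also run on simulated counts that gave all genes and libraries the same dispersion. Those counts lacked the wider spread of the footprint replicates, so they cannot show how the calls hold here. One dispersion per gene serves both assays, although footprint replicates spread more, so footprint errors may be too small. The deposited length was a multiple of 3 in 84.7% of all transcripts, in 99.4% of those tested and in all 10 subunits, and is read as a coding length. The alternatives, 20 for RNA and RPF and 19 for TE, included DESeq2 1.42.0. Named genes were all 10 subunits, Piwil1, and the 4 pathway genes of smallest adjusted p per contrast. The subunits and gene lists were chosen with earlier results of these data known.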

Additional observations from a re-analysis of the deposited data

Results flagged for a closer look

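In 3 subunits the footprint change differed from the RNA change by the interaction test in edgeR at an adjusted p under 0.05. Cnot2 had a TE change of -0.48, with RNA up by 0.89 and footprints by 0.41. Cnot3 had a TE change of 0.70, and Cnot6 one of -0.94. Of all tested genes, 14.9% were called in the same test.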

How the results depend on the processing

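Calls of Cnot1 and Cnot2 in RNA and of Cnot1 in footprints held in all 20 alternatives. The main counts were 4 subunits called in RNA, 2 in footprints and 3 in TE, and 5988, 4075 and 2389 of all genes. Fitting only the libraries of one assay gave 7 subunits and 9042 genes in RNA and 1 subunit and 1985 genes in footprints. Removing the length trend gave 7 subunits and 5774 genes in RNA and 4 and 4082 in footprints. No count filter gave 4 and 4065 in footprints, and summing transcripts gave 4 and 3760 in footprints and 1 and 2179 in TE. Leaving out one library gave 2 to 7 subunits and 3250 to 7094 genes in RNA, 2 to 6 and 2937 to 5169 in footprints, and 0 to 3 and 620 to 3636 in TE. With no scaling, 3144 genes rose and 2561 fell in RNA (2646 and 3342 with TMM), and 679 rose and 1648 fell in TE (1175 and 1214 with TMM).

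The labels do not say whether a replicate number pairs libraries across groups, so a block on it was run only as an alternative. With the replicate block, 4 subunits were called in RNA, 2 in footprints and 1 in TE. Over all genes the counts were then 5022, 3061 and 1237, against 5988, 4075 and 2389 in the main fit. Cnot6 kept its TE call (adjusted p = 0.0461), while Cnot2 had 0.0948 and Cnot3 0.0865. The block together with removal of the length trend gave 1 subunit and 1177 genes in TE, with 0.0829 for Cnot2 and 0.0825 for Cnot3. Crossing the footprint numbers in the block, an alternative chosen after seeing the data, gave 7, 8 and 5 subunits and 9098, 8180 and 6538 genes in RNA, footprints and TE.

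Changes of sign occurred only in values that were not called in the main fit. Of these, Cnot7 RPF (-0.24, edgeR adjusted p = 0.0136) and Cnot6l RPF (-0.26, 0.0094) were called with the crossed footprint numbers. That block was chosen from the spread of these same libraries, so its p-values cannot back a call. With the length trend removed, Cnot4 RNA was -0.00060 (-0.00063 with the block), Cnot8 TE -0.013 (-0.010 with the block) and Cnot11 RNA 0.035 (0.035 with the block). With no scaling, Cnot8 TE was -0.073, Cnot11 TE -0.016 and Cnot11 RNA 0.084. Cnot11 RNA was also 0.026 with DESeq2 size factors, 0.026 with DESeq2, 0.050 with TMM within each assay and 0.051 with RNA libraries alone. Cnot6l TE was 0.0041 with summed transcripts. Leaving out one library gave ranges of -0.29 to 0.22 for Cnot4 RPF, -0.39 to 0.13 for Cnot4 TE, -0.52 to 0.017 for Cnot6l RPF, -0.33 to 0.15 for Cnot6l TE, -0.47 to 0.087 for Cnot7 RPF and -0.14 to 0.26 for Cnot8 TE. It gave -0.045 to 0.054 for Cnot11 RNA, -0.0061 to 0.26 for Cnot11 RPF and -0.026 to 0.093 for Cnot9 RNA. The cause of these moves was not tested.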
